A study of Homo sapiens with 8 samples.

Results

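The 8 genes HMGCS1, SQLE, INSIG1, IDI1, FDFT1, FDPS, LSS and DHCR7 belong to cholesterol synthesis and its feedback control. They were taken by symbol from a table of ribosome-footprint levels for 60651 genes, and all 8 were found. Their levels were compared in IMR32 cells, a human neuroblastoma line with amplified MYCN that the labels list as wild type, over 4 biological replicates of each condition. In 4 libraries the cells had received CR31B, which the labels call an analogue of silvestrol, and in 4 they had received the solvent DMSO (0.1%). Treatment lasted 6 h in both, and cycloheximide, which holds ribosomes in place on the mRNA, was added before harvest to all cells. The series title concerns translation controlled by eIF4A, the RNA helicase that silvestrol inhibits, so the comparison asks which footprint levels differ under such an inhibitor. All values come from 1 cell line, and the CR31B dose is not given in the sources used here.

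Cells make cholesterol from acetyl-CoA in the endoplasmic reticulum and cytosol. The early steps yield mevalonate, the middle steps build isoprenoid units up to farnesyl diphosphate, and the late steps join them to squalene, close the sterol rings and trim the product to cholesterol. Transcription of these enzymes is driven by SREBP2 (gene SREBF2), a membrane-bound factor that SCAP carries to the Golgi for cleavage when sterols are low. INSIG1 retains SCAP in the endoplasmic reticulum when sterols are high, and its own gene is an SREBP target, which closes a feedback loop. NF-Y, a factor that binds CCAAT boxes, and Sp1, which binds GC boxes, are known partners of SREBP at sterol-regulated promoters.

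What the 8 genes share outside their footprint levels was first looked for in their promoters. RefSeq promoter windows (GRCh38.p14; 250 bases before to 50 after each start) matched 6 of the 8 genes, with 10 windows in all. The motif CCAAT, read on both strands, was present in 7 of these 10 windows, against 34.6% of all 35116 windows and 35.8% of the 12921 windows of genes tested here. Counted per gene, 6 of 6 had it in at least 1 window, against 44.9% of 8746 tested genes with a window. One stretch per gene is shown because it carries the feature these promoters have in common. Each lies before the annotated start and outside protein-coding exons, and capitals mark CCAAT or its reverse complement ATTGG:
HMGCS1, chr5:43313513-43313662, minus strand: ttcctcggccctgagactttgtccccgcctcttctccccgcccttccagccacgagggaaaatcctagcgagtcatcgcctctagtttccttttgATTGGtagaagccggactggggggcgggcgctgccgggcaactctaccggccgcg
IDI1, chr10:1049171-1049350, minus strand: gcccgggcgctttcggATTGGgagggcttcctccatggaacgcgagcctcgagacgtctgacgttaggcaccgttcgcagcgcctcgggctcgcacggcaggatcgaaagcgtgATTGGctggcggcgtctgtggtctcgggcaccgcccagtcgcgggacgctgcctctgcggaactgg
FDPS, chr1:155308616-155308747, plus strand: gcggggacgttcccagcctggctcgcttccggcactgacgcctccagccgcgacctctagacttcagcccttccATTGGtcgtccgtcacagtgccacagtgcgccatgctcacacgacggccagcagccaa
LSS, chr21:46228825-46229004, minus strand: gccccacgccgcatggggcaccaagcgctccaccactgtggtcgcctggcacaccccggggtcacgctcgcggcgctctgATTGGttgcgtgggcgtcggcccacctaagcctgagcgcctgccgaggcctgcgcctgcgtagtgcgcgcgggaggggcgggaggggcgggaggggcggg
DHCR7, chr11:71448436-71448615, minus strand: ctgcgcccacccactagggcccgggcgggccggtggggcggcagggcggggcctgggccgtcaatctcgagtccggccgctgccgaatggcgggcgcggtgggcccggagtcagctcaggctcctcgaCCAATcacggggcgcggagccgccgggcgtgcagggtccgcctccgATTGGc
INSIG1, chr7:155297628-155297775, plus strand: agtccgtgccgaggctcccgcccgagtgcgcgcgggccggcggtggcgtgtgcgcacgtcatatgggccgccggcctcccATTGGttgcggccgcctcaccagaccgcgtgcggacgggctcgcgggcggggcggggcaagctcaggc

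In these stretches DHCR7 and IDI1 each hold 2 CCAAT boxes and the other 4 genes hold 1. In the full windows, the boxes began 155 and 100 bases before the start of HMGCS1, 170 bases before INSIG1, 150 bases before LSS, 94 and 48 bases before DHCR7, and 215 and 117 bases before the IDI1 start shown. FDPS has 3, beginning 176, 122 and 51 bases before its start. The GC box GGGCGG was in 9 of the 10 windows, against 67.2% of windows of tested genes. The E-box CACGTG, the site that MYC-family factors such as MYCN bind, was in 2 windows, those of INSIG1 and LSS, against 9.77%. The letters TCACNCC, a core of many sterol response elements, were in 3 windows, against 15.9%. These were overlapping windows of HMGCS1 and a window of IDI1. Counted per gene, 2 of 6 had this core, against 20.5% of tested genes with a window. The longer form TCACNCCAC, which contains that core, was in none of the windows, against 1.04%. A match is a description of letters and shows neither binding nor a cause. Among the 11 other cholesterol synthesis enzymes with a window, 8 had a CCAAT box in at least 1.

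The log2 fold changes of the 8 genes ran from -1.30 for SQLE to -0.23 for LSS, all below 0. Values are TPM, a relative transcript measure, which divide reads by transcript length and set each library to the same sum. Whether that length includes untranslated parts of the mRNA is not given in the sources used here. Levels of different genes, and their order, are therefore only a rough guide to relative amounts. Footprints reflect the amount of an mRNA and the ribosomes on it together. No measurement of total mRNA was analysed here, and in bulk samples fewer cells carrying a transcript and less RNA per cell cannot be told apart. Log2 fold changes compare log2(TPM + 1) in CR31B with DMSO, with 0 meaning no difference relative to the rest of the library. As all libraries have the same sum, a change of footprints shared by all genes cannot be seen in these values. Adjusted p-values come from limma with Benjamini-Hochberg adjustment over the 11778 genes averaging 1 TPM or more, and 0.05 is the threshold.

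All 8 genes passed the filter on low values, and 6 fell and none rose at an adjusted p under 0.05 in limma. Of all tested genes, 7.46% passed the threshold, 4.02% lower and 3.45% higher. The median log2 fold change of the 8 was -0.88, against 0.029 for all genes tested. For 7 of the 8, every CR31B library lay below every DMSO library, a pattern found in 8.14% of tested genes. Summed over the 8 genes, the level was 410 ± 65.5 TPM with CR31B, against 656 ± 65.6 TPM with DMSO (SD of n = 4), or 62.5% of DMSO. The sums ran from 326 to 467 TPM and from 597 to 741 TPM, without overlap.

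**Figure D1:**
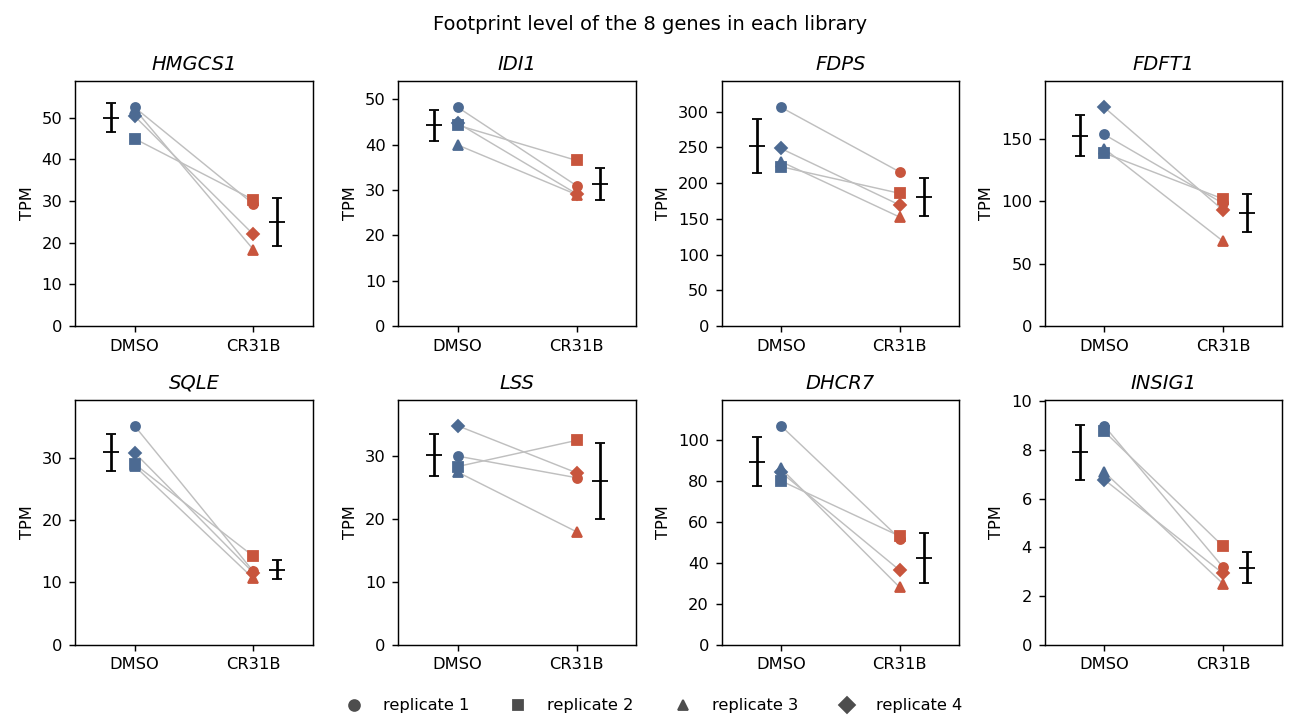
Footprint level (TPM, y axis from 0) of each of the 8 genes in every DMSO and CR31B library; marker shapes give the replicate number, grey lines join equal numbers, and black bars are the mean and SD of 4 libraries. For LSS the groups overlap, and for the other 7 genes all CR31B points lie below all DMSO points.

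HMGCS1 makes HMG-CoA, the precursor of mevalonate. Its levels in CR31B replicates 1 to 4 were 29.27, 30.3, 18.35 and 21.98 TPM, and in DMSO replicates 1 to 4 they were 52.52, 44.99, 52.12 and 50.41 TPM. The groups did not overlap, and replicate 3 was the lowest of the CR31B libraries. HMGCS1 fell to 49.9% of its DMSO mean (log2 fold change -0.999, SE 0.16; adjusted p = 0.00568 by limma).

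IDI1 isomerises isopentenyl diphosphate, and FDPS joins isoprenoid units into farnesyl diphosphate, which also feeds protein prenylation, ubiquinone and dolichol. IDI1 was at 30.95, 36.52, 28.98 and 29.16 TPM in CR31B and at 48.25, 44.3, 39.93 and 44.76 TPM in DMSO. The groups did not overlap, with replicate 2 of CR31B and replicate 3 of DMSO the nearest libraries. IDI1 fell by 0.49 on the log2 scale (SE 0.12; adjusted p = 0.0302 by limma), to 70.9% of DMSO. That call was among the least stable: the adjusted p was above 0.05 without any 1 of 6 libraries, reaching 0.0894 without DMSO replicate 1.

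FDPS had the highest level of the 8 genes in both conditions. It was at 215.47, 185.54, 152.26 and 169.16 TPM in CR31B and at 305.94, 222.88, 229.99 and 248.3 TPM in DMSO. The highest CR31B library and the lowest DMSO library were close, yet the groups did not overlap. FDPS stood at 71.7% of DMSO with a log2 fold change of -0.48 (SE 0.14; adjusted p = 0.0718 by limma), which misses the threshold. FDPS passed in 3 of 15 alternatives, with a limma adjusted p of 0.0191 with the replicate number as a block, 0.0224 after rescaling over protein-coding genes and 0.0447 without CR31B replicate 1. FDPS has 8 named pseudogenes in the table, each at a mean of 0.115 TPM or less.

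FDFT1 (squalene synthase) commits farnesyl diphosphate to sterols, and SQLE (squalene epoxidase) performs the first oxygen-dependent step, a known control point of the pathway. FDFT1 was at 98.14, 101.72, 67.92 and 92.72 TPM in CR31B and at 153.34, 138.51, 142.06 and 175.09 TPM in DMSO. Replicate 3 of CR31B was again the lowest library, and the groups did not overlap. FDFT1 fell to 59.2% of DMSO (log2 fold change -0.76, SE 0.15; adjusted p = 0.0127 by limma).

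SQLE had the largest fall of the 8 genes in these data. Its levels were 11.76, 14.21, 10.63 and 11.54 TPM in CR31B and 35.21, 29.06, 28.76 and 30.89 TPM in DMSO. The groups were far apart, and the CR31B libraries lay close together. SQLE fell to 38.8% of DMSO, with a log2 fold change of -1.30 (SE 0.12; 95% limits -1.57 and -1.02; adjusted p = 0.000562 by limma). By p-value it stood at position 13 of the 11778 genes tested.

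LSS (lanosterol synthase) closes the sterol rings and was the exception. It was at 26.49, 32.42, 17.9 and 27.27 TPM in CR31B and at 29.92, 28.27, 27.38 and 34.74 TPM in DMSO. The groups overlapped, and the library of CR31B replicate 2 was higher than DMSO replicate 2. The log2 fold change was -0.23 (SE 0.17; 95% limits -0.60 and 0.15; adjusted p = 0.468 by limma), so no difference was detectable, while a fall to the lower bound is not excluded by these 8 libraries. Much of the estimate rested on CR31B replicate 3: without it the log2 fold change was -0.064.

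DHCR7 reduces 7-dehydrocholesterol to cholesterol in the last step of one branch of the pathway. It was at 51.66, 52.84, 27.83 and 36.16 TPM in CR31B and at 106.71, 79.86, 85.95 and 84.08 TPM in DMSO. The CR31B libraries spread widely, from 27.83 to 52.84 TPM, and all lay below the DMSO libraries. DHCR7 fell to 47.2% of DMSO (log2 fold change -1.10, SE 0.20; adjusted p = 0.00980 by limma).

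INSIG1, the feedback regulator, had the lowest level of the 8 genes. It was at 3.18, 4.04, 2.5 and 2.92 TPM in CR31B and at 8.99, 8.76, 7.09 and 6.78 TPM in DMSO. No library of one group reached the range of the other. INSIG1 fell to 40.0% of DMSO, with a log2 fold change of -1.10 (SE 0.15; adjusted p = 0.00322 by limma). At this level the added 1 TPM shrinks the fold change, and with 0.1 TPM in its place the estimate was -1.31.

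The exact permutation test, run on each gene's TPM over the 70 assignments of 4 and 4 libraries, gave a two-sided p of 0.029 for 7 genes, the smallest that this design allows, and 0.314 for LSS. The falls of HMGCS1, SQLE, INSIG1 and FDFT1 passed the threshold in every alternative that tested them. DHCR7 passed in all but 1, having an adjusted p of 0.0512 when no filter on low values was applied. Leaving out any 1 library gave 5 or 6 of the 8 genes below the threshold, when 1.77% to 4.13% of all tested genes passed as lower. The median log2 fold change of the 8 genes then ran from -0.96 to -0.75.

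CR31B replicate 3 had the lowest level of its group in 8 of the 8 genes, and CR31B replicate 2 the highest in 7. In DMSO, replicate 1 was the highest in 6. CR31B replicate 3 also had the fewest genes above 0 TPM, 17857, against 19189 to 19758 in the other CR31B libraries and 19043 to 22270 in DMSO. The part of this in the low levels was not tested. Without that library 5 of the 8 genes passed as lower, when 3.12% of all tested genes did. Their median log2 fold change was then -0.75, against -0.88 and 6 genes with all libraries. Between libraries, the levels of the 8 genes moved together. The Pearson correlation of log2(TPM + 1) between pairs of the 8 genes over the 8 libraries had a median of 0.925, and 0.706 after group means were removed, with all 28 pairs above 0 in both cases. These correlations share the libraries, their depth and the common sum of TPM.

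Set against the equally numbered DMSO library, the median level of the 8 genes was 59.9%, 70.4%, 42.4% and 48.3% in replicates 1 to 4. All 8 genes were below DMSO in replicates 1, 3 and 4, and 7 were in replicate 2, with LSS at 115% there. SQLE ran from 33.4% to 48.9% of DMSO, the narrowest range in percentage points next to INSIG1, whereas DHCR7 ran from 32.4% to 66.2%. An equal relative spread gives a smaller range in percentage points at a lower percent of DMSO, so this is no ranking by fold change.

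**Figure D2:**
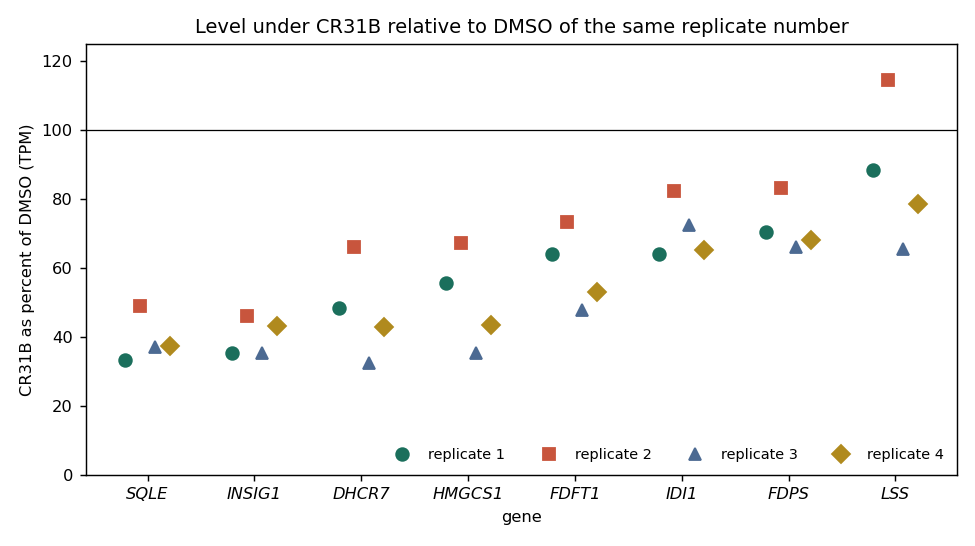
Level of each gene under CR31B as a percent of the equally numbered DMSO library (y axis, from 0; the line marks 100%), with 1 marker per replicate. SQLE and INSIG1 lie below 50% in all 4 replicates, and LSS in replicate 2 is the single point above 100%.

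Whether the 8 genes differed among themselves in their response was compared with the log2 ratio of each pair of genes in each library, for 28 pairs. For 14 pairs the ratio in CR31B did not overlap that in DMSO (exact permutation p of 0.029, adjusted 0.0571 over the 28 pairs, so that none passes after adjustment in this design). How often pairs of other genes separate in this way was not tested. Of these pairs, 12 set one of SQLE, INSIG1, DHCR7 and HMGCS1 against one of IDI1, FDPS and LSS. The genes were split in this way with their log2 fold changes known, so the split describes their order and does not test it. The log2 fold change of SQLE was lower than that of LSS by 1.07 and lower than that of IDI1 by 0.81. FDFT1 lay between, and its ratio to SQLE and its ratio to LSS were the other 2 pairs. Within the first 4 genes no ratio separated the groups, the largest difference being 0.30, between HMGCS1 and SQLE. The order of mean TPM in DMSO, which depends on the transcript length used, ran FDPS, FDFT1, DHCR7, HMGCS1, IDI1, SQLE, LSS and INSIG1. Libraries overlapped between HMGCS1 and IDI1 and between SQLE and LSS. In CR31B the mean of HMGCS1 stood at position 6, after IDI1 and LSS, but its libraries overlapped those of both.

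The other enzymes of the pathway were taken from a list of 12, all of them tested. In that list 3 fell, when 4.02% of all tested genes did, none rose and 9 did not pass in limma. Of the 12 log2 fold changes 11 were below 0, with a median of -0.42 against 0.029 for all genes. Summed over the 12, the level was 393 ± 42.8 TPM with CR31B, against 544 ± 56.5 TPM with DMSO (SD of n = 4), or 72.3% of DMSO. Leaving out 1 library left from 1 to 3 falls, when 1.77% to 4.13% of all tested genes fell. Only 1 fall was left without CR31B replicate 3, CR31B replicate 4, DMSO replicate 1 or DMSO replicate 2. With the replicate block, 7 of the 12 fell, when 6.56% of all tested genes fell and 5.77% rose, and among them were ACAT2, CYP51A1, LBR and NSDHL.

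The 3 that fell act in the late steps. MSMO1, which removes methyl groups at carbon 4 of the sterol, went from 59.06 ± 20.8 to 25.2 ± 6.39 TPM (SD of n = 4; log2 fold change -1.16, SE 0.26; adjusted p = 0.0253 by limma). HSD17B7, a sterol ketoreductase, went from 12.7 ± 2.56 to 6.43 ± 1.07 TPM (-0.88, SE 0.16; adjusted p = 0.0115 by limma). SC5D, the desaturase before DHCR7, went from 15.9 ± 2.87 to 10.6 ± 0.852 TPM (-0.53, SE 0.14; adjusted p = 0.0489 by limma), and it passed in 6 of 15 alternatives. HSD17B7 passed in all 14 alternatives that tested it, and MSMO1 in 9 of 15.

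The 3 enzymes between mevalonate and isopentenyl diphosphate, MVK, PMVK and MVD, had log2 fold changes of -0.28, 0.018 and -0.096 (limma adjusted p of 0.469, 0.959 and 0.792). Their groups overlapped, and the signs of PMVK and MVD turned when single libraries were left out, that of PMVK also after quantile normalization. Whether these 3 genes differ from the rest of the pathway was not tested. EBP, CYP51A1, LBR, NSDHL, ACAT2 and TM7SF2 ran from -0.55 to -0.33, with limma adjusted p from 0.0546 to 0.229; ACAT2 exons overlap TCP1 on the opposite strand (131 TPM).

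**Figure D3:**
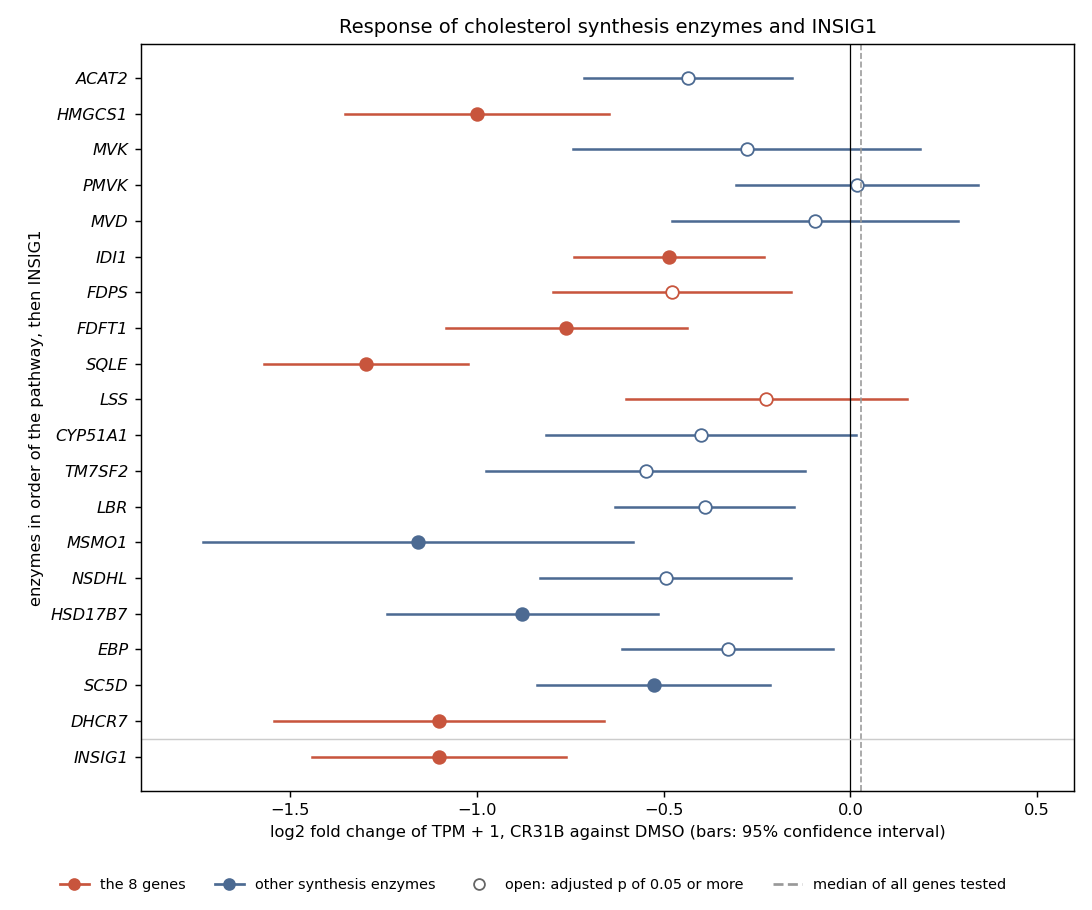
Log2 fold change of TPM + 1 (x axis, CR31B against DMSO) with its 95% confidence interval for 19 enzymes in pathway order and INSIG1; filled points have a limma adjusted p under 0.05 and the dashed line is the median of all genes tested. The points lie left of 0 except for PMVK at 0.018, and SQLE is the farthest left at -1.30.

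The machinery that senses sterols and releases SREBP was taken from a list of 12 genes, all tested. In that list 1 fell, when 4.02% of all tested genes did, and none rose. The median was -0.067, with 6 members on each side of 0. The member that fell was INSIG2, the paralog of INSIG1, which went from 3.93 ± 0.993 to 2.12 ± 0.313 TPM (SD of n = 4; log2 fold change -0.64, SE 0.17; adjusted p = 0.0466 by limma). INSIG2 passed in 6 of 14 alternatives and in 1 of the 8 that left out a library. SREBF2 itself was at 30.54, 22.68, 21.4 and 25.48 TPM in CR31B and at 30.36, 25.07, 28.82 and 26.4 TPM in DMSO. These groups overlapped (log2 fold change -0.15, SE 0.13; adjusted p = 0.550 by limma). SREBF1, which encodes the factor of fatty acid synthesis, had a log2 fold change of -0.51 (SE 0.22; adjusted p = 0.193 by limma), and SCAP had one of 0.19 (SE 0.12; adjusted p = 0.379 by limma).

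Genes of cholesterol uptake and movement within the cell came from a list of 12, of which 10 were tested. STARD4, STARD3 and NPC2 fell, when 4.02% of all tested genes did, none rose, and the median was -0.31. STARD4 and STARD3, sterol transfer proteins, went from 39.8 ± 3.88 to 26.9 ± 3.68 TPM and from 9.40 ± 1.14 to 6.11 ± 0.958 TPM (SD of n = 4), with log2 fold changes of -0.55 each (limma adjusted p of 0.0275 and 0.0415). Whether the counting used strand is not given in the sources used here. NPC2, which carries cholesterol out of lysosomes, was at most 2.43 TPM in any library and had one of -0.61 (limma adjusted p of 0.0435), or -0.96, not passing, with 0.1 TPM added in place of 1; its exons overlap ISCA2 on the opposite strand (13.2 TPM). The calls in this list depended on single libraries. Leaving out 1 of CR31B replicate 3, CR31B replicate 4, DMSO replicate 3 or DMSO replicate 4 left 0 of the 10 below the threshold. No omission of a library left more than 2, when 1.77% to 4.13% of all tested genes fell.

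The branch to fatty acids is driven mainly by SREBP1. In a list of 12 tested genes 1 fell, when 4.02% of all tested genes did, and none rose. The median was -0.032, with 6 below 0 and 6 above. SCD, the desaturase that makes oleate, went from 67.3 ± 8.02 to 44.4 ± 9.32 TPM (SD of n = 4; log2 fold change -0.60, SE 0.15; adjusted p = 0.0405 by limma), a call that stood in 6 of 15 alternatives. ACLY and FASN, early enzymes of the same branch, had log2 fold changes of 0.37 and 0.17 (limma adjusted p of 0.271 and 0.786), and that of FASN turned to -0.045 without CR31B replicate 2. Of the isoprenoid branches and protein prenylation, 14 genes were tested, 4 were below 0 and 10 above, the median was 0.17, and none passed in limma, 3 having an unadjusted p under 0.05, as 23.4% of all tested genes did. These were GGPS1, RABGGTB and PDSS2, and their groups did not overlap, with 1 lower and 2 higher in CR31B. Of all tested genes, 8.14% lay lower without overlap and 8.07% higher. RABGGTB, the highest of the list by mean TPM, with exons that overlap ACADM (60.3 TPM), had a log2 fold change of 0.42 (SE 0.13; adjusted p = 0.0794 by limma). PDSS2, a subunit of the enzyme that makes the ubiquinone side chain, averaged 1.71 TPM and had the largest log2 fold change of the list, 0.47 (SE 0.14; adjusted p = 0.0706 by limma). PDSS2 and GGPS1, which extends farnesyl to geranylgeranyl diphosphate, were chosen after their values were seen. The log2 fold change of GGPS1 was -0.46 (SE 0.13; adjusted p = 0.0552 by limma, and 0.0337 with the replicate block).

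In the list of cholesterol efflux genes and their regulators, 4 of 8 genes were tested and none passed in limma, 2 having an unadjusted p under 0.05, against the 23.4% of all tested genes. RXRB, the highest, was at 6.60 ± 0.902 TPM under CR31B and 6.46 ± 0.575 TPM under DMSO (SD of n = 4), and its sign turned after quantile normalization. NR1H2 and NR1H3 encode the LXR receptors, which raise efflux when oxysterols accumulate, and are named because their groups do not overlap, a choice made with their values known. NR1H2 was at 5.61, 9.91, 6.45 and 4.12 TPM in CR31B and at 2.33, 2.66, 3.92 and 3.85 TPM in DMSO. All CR31B libraries lay above all DMSO libraries, as in 8.07% of tested genes, with a log2 fold change of 0.81 (SE 0.23; adjusted p = 0.0599 by limma). NR1H3 had one of 0.56 (SE 0.20; adjusted p = 0.124 by limma), also without overlap; its exons overlap ACP2 on the opposite strand (22.7 TPM). ABCA1 and ABCG1, transporters that LXR induces, were at most 0.11 TPM in each library.

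**Figure D4:**
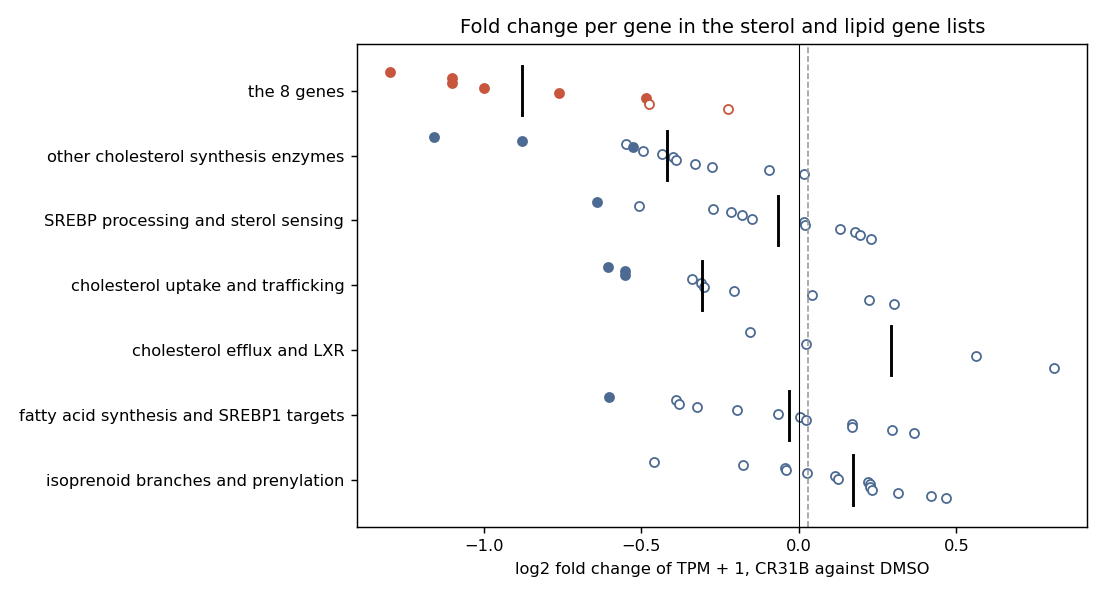
Log2 fold change of TPM + 1 (x axis, CR31B against DMSO) for each tested gene of the 7 lists; filled points have a limma adjusted p under 0.05, black bars are list medians and the dashed line is the median of all genes tested. The medians are -0.88 for the 8 genes and -0.42 for the other synthesis enzymes, and -0.032 for fatty acid synthesis.

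Leader sequences, where eIF4A unwinds mRNA ahead of the start codon, were described for 1 annotated transcript per gene (GENCODE release 29), which need not be the one these cells use. Among the 8 genes the leader had a median length of 216.5 nt and a GC content of 62.4%, against 188 nt and 66.7% over 10223 tested genes. The longest run of purines, the base type to which silvestrol-like inhibitors are known to clamp eIF4A, had a median of 11 nt against 8 nt. It was 19 nt in SQLE, whose leader of 898 nt was the longest, 12 nt in DHCR7 and FDPS and 11 nt in HMGCS1 and IDI1. The run was 6 nt in INSIG1, 5 nt in FDFT1 and 4 nt in LSS, whose leader of 77 nt was the shortest. The share of purines in the leader had a median of 54.2%, against 51.0%, and its order differed. It was 62.3% in LSS, 59.9% in DHCR7, 59.3% in FDPS and 57.5% in IDI1. FDFT1 had 50.9%, SQLE 49.6%, INSIG1 46.4% and HMGCS1 45.9%. These are descriptions of 8 leaders and were not tested.

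The 5 genes outside the set whose levels followed the mean profile of the 8 most closely were ATP5MC3, HNRNPC, H2AZ1, CMTM6 and ARPP19, with Pearson correlations from 0.980 to 0.983 over 8 libraries, among 5606 genes averaging 10 TPM or more. After group means were removed these correlations were 0.906 to 0.989. The genes were picked by their correlation over these same libraries, so high values here follow in part from that choice. HNRNPC, an abundant RNA-binding protein, averaged 658 TPM with CR31B, against 1085 TPM with DMSO (log2 fold change -0.73, SE 0.13; adjusted p = 0.00911 by limma). CMTM6 and ARPP19 also fell, with log2 fold changes of -0.54 and -0.62 (limma adjusted p of 0.0342 and 0.0325), while ATP5MC3 and H2AZ1 had -0.33 and -0.44 (0.0654 and 0.0891).

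The labelled cell type was checked against its markers. Of 8 adrenergic neuroblastoma markers, 7 averaged 1 TPM or more, while TH was at most 1.19 TPM. Their summed level was 465 to 550 TPM in CR31B and 398 to 505 TPM in DMSO. Among them 1, HAND2, rose, when 3.45% of all tested genes did (log2 fold change 0.58, SE 0.12, adjusted p = 0.0188 by limma). HAND2 exons overlap HAND2-AS1, at a mean of 117 TPM. Sums over 5 epithelial and over 5 immune markers were at most 0.3 and 0.24 TPM in any library. Of 8 mesenchymal and fibroblast markers, 4 averaged 1 TPM or more. Their list summed to 129 to 162 TPM in CR31B and 116 to 175 TPM in DMSO. VIM was the highest at 101 to 156 TPM. COL1A1, FN1 and PDGFRB had means of 9.30, 4.62 and 3.18 TPM, and PRRX1 was listed at 0 throughout.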

How the data were processed

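Ribosome-protected fragments of 28 to 30 nt were sequenced from 8 libraries. The authors deposited 1 table of TPM for 60651 genes, with 2 decimals. Per the submitters' processing notes, the build was hg38/GRCh38 and cutadapt 3.2, Bowtie2 2.3.4.1, STAR 2.7.1a, RSEM 1.2.28 and DESeq2 1.32.0 were used; their roles, the annotation, the strand setting and the handling of reads with several positions are not given in the sources used here. TPM keep no read depth, so no counting interval is given; genes above 0 TPM ran from 17857 to 22270 per library. Each column was matched to its library by description.

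Symbols were found for 60437 genes. The 11778 genes averaging 1 TPM or more were fitted on log2(TPM + 1) with limma 3.58.1 in R 4.3.3 (lmFit, eBayes with trend), treatment being the only term. The fit was run on 5 simulated tables, each with 200 changed genes of about 10 TPM or more. It recovered 87.1% of 2-fold and 99.4% of 4-fold changes. Of the calls at an adjusted p under 0.05, 6.65% were false, more than that threshold aims at. The simulated libraries were independent, without the shared deviation of equal replicate numbers described below. Other steps used Python 3.11.15, SciPy 1.17.1 and pandas 2.3.3. Promoters are from RefSeq (GRCh38.p14).

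Members and lists were chosen with earlier results of these data known. Some listed genes are not reported here, and list counts are over the rest. Named were the 8 genes, every listed gene with an adjusted p under 0.05, the highest gene of a list where none passed, and the 5 genes most like the 8 in profile. Libraries of the same replicate number deviated together after group means were removed (correlations across genes of 0.333, 0.324, 0.301 and 0.105 for numbers 1 to 4, against -0.206 to 0.134 for unequal numbers; CR31B replicate 4 was nearest to DMSO replicate 1), and as all 4 exceeded 0.1 the numbers were taken as pairs in an alternative fit. Other alternatives changed the pseudocount, filter, scaling or variance trend, or left out 1 library.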

Additional observations from a re-analysis of the deposited data

How the results depend on the processing

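The count of the 8 genes below the threshold was 4 to 7 over all alternatives tried, and their median log2 fold change was negative in each. The 4 came with no filter on low values, which also gave 442 of 28564 genes in all (261 lower, 181 higher), 1 of the 12 other synthesis enzymes, and a median over all genes of -0.0036; more genes then enter the adjustment. With the replicate block, 1453 genes passed (773 lower, 680 higher), along with 7 of the 12 and 7 of the 8 genes, FDPS being the addition. After rescaling over protein-coding genes 669 of 10372 genes were higher and 566 lower (5.46%), against 406 and 473 of 11778 without it; 6 of the 12 and 7 of the 8 genes, FDPS included, then passed as lower. FDPS also passed without CR31B replicate 1. Leaving out 1 library gave 405 to 785 genes (208 to 486 lower, 197 to 393 higher), the fewest without DMSO replicate 4, and 1 to 3 of the 12. It gave a median over all genes from -0.0046, without CR31B replicate 1, to 0.058. The cause of these shifts in count was not tested. Signs turned for PMVK (-0.018 after quantile normalization, with a range to 0.14 on leaving out 1 library, and -0.051, -0.026, -0.029 and -0.011 without CR31B replicate 1, CR31B replicate 3, DMSO replicate 2 and DMSO replicate 4), for RXRB (-0.030 after quantile normalization, -0.049 without CR31B replicate 3, -0.029 without DMSO replicate 2, range to 0.068), for MVD (0.048 without CR31B replicate 3, range from -0.20) and for FASN (-0.045 without CR31B replicate 2, range to 0.46). Groups of the 8 genes that did not overlap numbered 7 after rescaling and 7 or 8 when 1 library was left out. The count of 8 came without CR31B replicate 2, the library with the highest LSS level of its group. With fewer libraries any gene separates more easily, and the share of all genes without overlap in these settings was not computed. Counts of reads cannot be had from TPM, so the precision of low genes such as INSIG1 and NPC2 is known only from the spread between libraries.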
